A study of Mus musculus with 8 samples.

Results

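The data describe 36 genes typical of astrocytes, measured by 46 probes among the 55681 probes of an Agilent mouse array, in 4 nuclei of the mouse hypothalamus. The array's RefSeq accessions name 20284 genes in all. The members were all probes whose RefSeq accession belongs to a gene of the list. The nuclei were the arcuate nucleus (Arc), the ventromedial hypothalamus (VMH), the dorsomedial hypothalamus (DMH), and the lateral hypothalamus (LH), cut by laser microdissection from 2 female C57BL/6J mice at 3 months of age (strain C57BL/6 in the labels). The mice carried no transgene or treatment in the labels, and each nucleus was measured on 2 arrays, named Arc1 and Arc2 and so on, 8 arrays in all. Which arrays came from the same mouse is not given in the sources used here, so a p-value measures the spread between arrays of the same nucleus. That spread is pooled over the 4 nuclei and moderated over all probes tested. Each sample was a piece of tissue that holds neurons, glia, and vessels together. A lower signal can therefore come from fewer cells of a type or from less RNA per cell, and these cannot be told apart.

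The labels of the arrays were compared with marker genes of the nuclei. *Agrp*, *Npy*, and *Pomc* were bright on both Arc arrays, with 47181 to 53020 for *Agrp* against at most 581 on any other array, and *Nr5a1* was bright on both VMH arrays. *Pomc* read 40403 and 43108 on the Arc arrays, 4049 and 3865 on the VMH arrays, and 1003 to 1554 on the DMH and LH arrays. *Hcrt*, a neuropeptide of the LH, reached 105971 and 116750 on the LH arrays and also 55940 and 51283 on the DMH arrays, against at most 684 in the Arc and VMH. *Pmch*, another LH gene, read 17650 and 17005 on the LH arrays, 16253 and 11631 on the DMH arrays, and 3938 and 3140 on the VMH arrays. On the Arc arrays it read 98 and 71. The DMH genes *Grp*, *Npvf*, and *Prdm13* were well above background on both DMH arrays and on LH1 and not on LH2, and *Npvf* was also on VMH1, with 438 there against 3943 and 4786 on the DMH arrays. Arrays of the same nucleus correlated at 0.981 (Arc), 0.978 (VMH), 0.971 (DMH), and 0.938 (LH) over 28765 probes, and LH2 correlated at 0.954 with DMH2. Between 47.1% and 52.7% of the spots of an array were well above background, and no spot was saturated.

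Astrocytes are the glial cells that clear glutamate and GABA from synapses, turn glutamate into glutamine, take up potassium and water, and pass small molecules to each other through gap junctions. They also secrete lipids, binding proteins, and components of the extracellular matrix. In the hypothalamus they lie among the neurons that control feeding, sleep, and body temperature. The Arc borders the third ventricle, whose wall there is built of tanycytes, glial cells that share several genes with astrocytes.

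By their means, 23 of the 34 astrocyte genes tested were lowest in the Arc and 21 were highest in the LH, where 25.9% and 29.1% of all probes were, whereas *Gfap*, the intermediate filament gene most used as an astrocyte marker, was highest in the Arc. Of the 46 probes, 43 probes of 34 genes entered the test, and all 43 were well above background on all 8 arrays. *Slc7a11*, the cystine and glutamate exchanger, was well above background on 1 DMH array alone, and *Slc15a2*, a peptide transporter, on none, so these 2 genes have no measured level. Another, dimmer probe of *Gfap* was well above background on 1 Arc array alone. Signals below are processed signals divided by the 75th percentile of their array, with the divisors rescaled so that their geometric mean is 1, and differences are in log2 with the standard error of the limma fit. Of the 43 probes, 8 probes of 7 genes (18.6%) differed among the 4 nuclei in the limma F-test at an adjusted p of 0.05, where 8.34% of the 28894 probes tested did. The genes were *Gjb6*, *Cbs*, *Glul*, *Fgfr3*, *Gfap*, *Slc1a2*, and *S100b*. The count fell to few or none when any 1 array of the Arc, VMH, or DMH was left out, and the count over all probes fell too. Without either LH array the member count changed little, and the count over all probes rose. Such a fit leaves 1 array in a nucleus.

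Against the mean of the other nuclei, 8 member probes were lower and 2 higher in the Arc, where 4.12% and 2.14% of all probes were. The 7 genes lower in the Arc were *Gjb6*, *Cbs*, *Fgfr3*, *Aldh1l1*, *Glul*, *Slc7a10*, and *Slc1a2*, each by its brightest probe, with *Slc4a4* by its dimmest. *Gfap* was the gene higher, by both of its tested probes. The median log2 difference of the 34 genes was -0.42 in the Arc, with 27 of them below 0, beside a median of 0.05 over all probes. In the LH, 3 member probes were higher and 0 lower, where 3.89% and 2.45% of all probes were, and these were *Slc1a2*, *S100b*, and *Glul*. The median of the 34 genes in the LH was 0.33, with 31 of them above 0, beside -0.02 over all probes. The VMH and DMH lay close to the middle, with medians of 0.07 (-0.01 under quantile normalization) and 0.01. In the VMH the 2 probes of *Gfap* were lower and no member was higher, beside 2.14% and 2.27% of all probes. In the DMH limma called 0 member probes in either direction, where 0.166% of all probes were higher and 0.249% lower, and 3 member probes had an unadjusted p under 0.05. Trended and robust moderation also called 0.

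**Figure D1:**
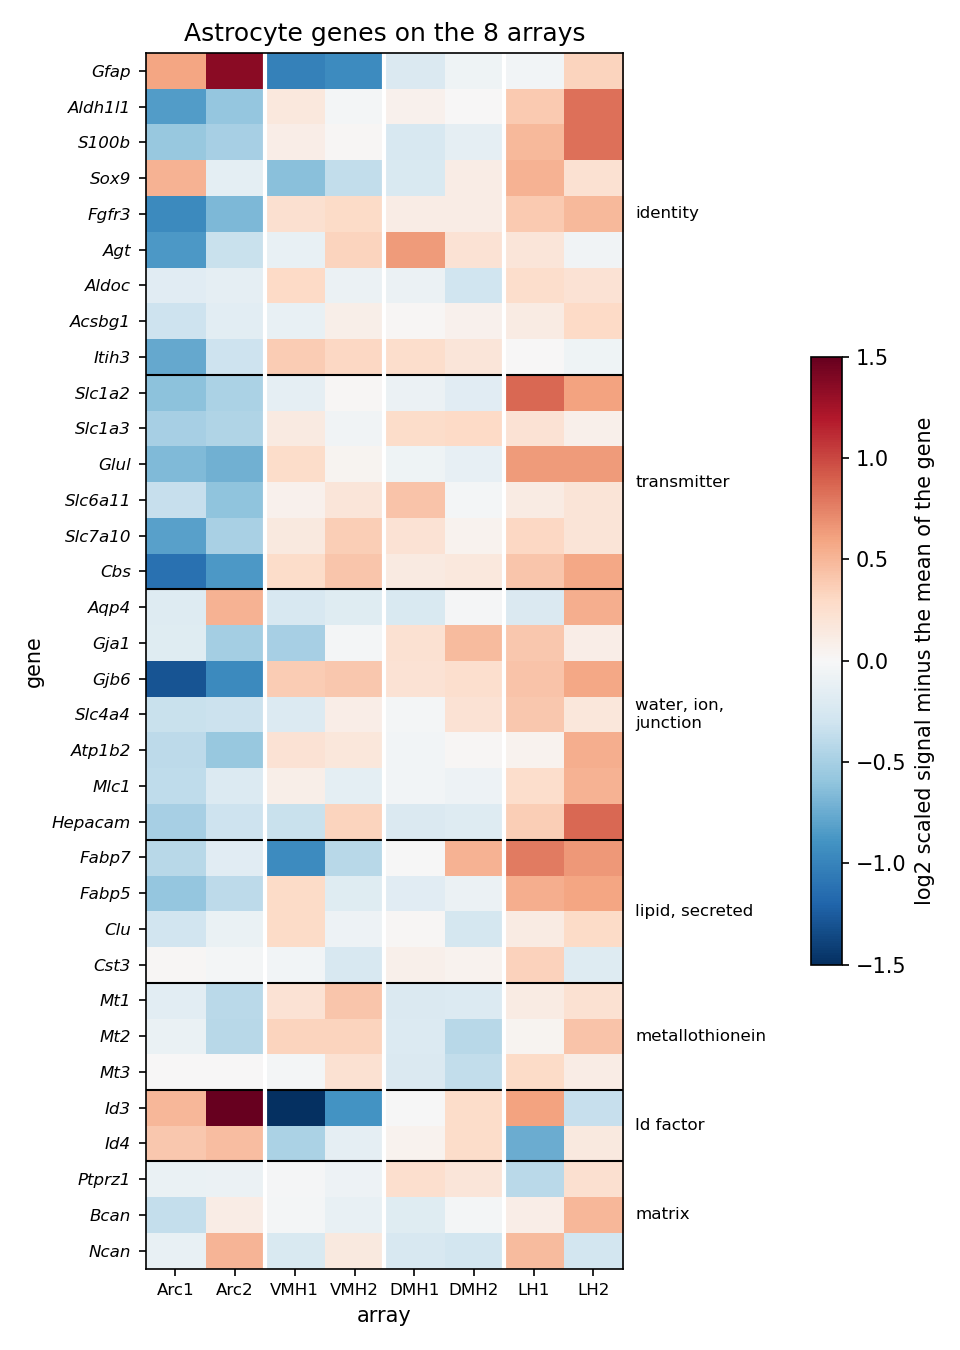
Heat map of the 34 tested astrocyte genes (rows, ordered by role, 1 probe per gene) on the 8 arrays (columns). Color gives the log2 scaled signal minus the mean of the gene over the arrays, from blue (below the mean) to red (above it), and values past the ends of the color bar take the end color. Both Arc columns are blue for most genes, *Gfap* and the Id genes are red there, and the LH columns are mostly red.

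Leaving out 1 array changed most of these calls and none of the medians' directions in the Arc and the LH. The number of member probes called in the Arc, 10 in all, became 1, 1, 3, 4, 3, and 3 without Arc1, Arc2, VMH1, VMH2, DMH1, or DMH2, and 14 and 11 without LH1 or LH2. The number called in the LH, 3 in all, became 0 without any 1 of the 6 arrays of the other nuclei, 2 without LH1 (of the 3 genes, *S100b* alone was still called), and 1 without LH2. The median of the 34 genes stayed between -0.48 and -0.38 in the Arc and between 0.30 and 0.38 in the LH when any array was left out. Against the VMH and DMH alone, a reference chosen after the data were seen, 2 member probes were higher and 3 lower in the Arc, 0 were called in the LH, and the medians were -0.32 and 0.25. Over these 2 reference nuclei the sign of both shifts was kept, with smaller sizes.

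Upstream sequences are shown for 4 of the genes that passed the F-test. *Gjb6*, *Cbs*, and *Glul* had both Arc arrays below all other arrays, and *Gfap* had both Arc arrays above them, so that the sequences of genes with opposite order can be read side by side. They are the 250 bases before the annotated gene start, 5′ to 3′ on the strand of the gene, from RefSeq for the build GRCm38.p6, which had an entry for 31 of the 36 genes. Capitals mark the only match to any of the motifs searched in these windows.
*Gfap* (chr11:102897201-102897450, minus strand): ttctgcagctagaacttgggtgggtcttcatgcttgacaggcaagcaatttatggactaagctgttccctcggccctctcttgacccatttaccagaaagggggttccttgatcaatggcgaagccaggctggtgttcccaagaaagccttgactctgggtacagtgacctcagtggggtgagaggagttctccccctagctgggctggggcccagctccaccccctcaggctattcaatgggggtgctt
*Gjb6* (chr14:57133612-57133861, minus strand): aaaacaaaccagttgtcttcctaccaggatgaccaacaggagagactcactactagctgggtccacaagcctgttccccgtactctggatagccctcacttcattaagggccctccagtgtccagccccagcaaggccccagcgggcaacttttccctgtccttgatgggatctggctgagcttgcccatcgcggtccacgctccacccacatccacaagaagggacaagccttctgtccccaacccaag
*Cbs* (chr17:31637206-31637455, minus strand): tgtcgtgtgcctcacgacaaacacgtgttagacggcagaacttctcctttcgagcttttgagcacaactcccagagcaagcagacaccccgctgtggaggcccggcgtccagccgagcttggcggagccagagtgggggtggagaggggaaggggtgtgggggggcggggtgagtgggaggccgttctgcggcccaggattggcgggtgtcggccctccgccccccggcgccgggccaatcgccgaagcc
*Glul* (chr1:153899679-153899928, plus strand): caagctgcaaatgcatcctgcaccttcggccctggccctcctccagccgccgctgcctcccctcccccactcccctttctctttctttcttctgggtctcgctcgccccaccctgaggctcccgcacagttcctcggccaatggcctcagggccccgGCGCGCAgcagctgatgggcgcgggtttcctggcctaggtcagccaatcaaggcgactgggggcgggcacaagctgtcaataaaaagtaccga
Bases G and C made up 55.6% of the *Gfap* window, 56.8% of the *Gjb6* window, 68.0% of the *Cbs* window, and 64.8% of the *Glul* window.

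The windows were searched on both strands for 4 motifs, none of which contains the letters of another. The letters TTCNNNGAA, as in sites of STAT factors, occurred in the windows of 5 of the 31 member genes (*Acsbg1*, *Agt*, *Aldoc*, *Slc1a3*, and *Slc7a11*) and in 7.02% of 32851 promoters. The letters ACAAAG or ACAATG, as in SOX sites, occurred in 1 of 31 and in 25.2% of promoters. TATAAA occurred in 3 of 31 (*Agt*, *Ncan*, and *Slc1a3*) and in 12.4%. TGCACNC or TGCGCNC, the core of the metal response element, occurred in 7 of 31 (*Glul*, *Mt1*, *Mt2*, *Ptprz1*, *Slc4a4*, *Slc6a11*, and *Slc7a10*) and in 21.4% of promoters, and its match in *Glul* lies on the minus strand, 93 to 87 bases before the start. A match describes letters and not a bound site, and no motif was shared by the 4 windows shown.

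Among the 9 genes of astrocyte identity, 7 had a negative difference in the Arc, and *Gfap* and *Sox9* had a positive one. Its brightest probe read 3735 and 6337 on Arc1 and Arc2, 1228 and 1284 on the VMH arrays, 2125 and 2377 on the DMH arrays, and 2412 and 3109 on the LH arrays. Both Arc arrays lay above all others and both VMH arrays below all others, although Arc1 and Arc2 differed by 0.76 in log2. *Gfap* was higher in the Arc than in the mean of the other nuclei by 1.30 ± 0.24 (log2, 2.46-fold, adjusted p = 0.0253) and lower in the VMH by 2.47-fold (-1.31 ± 0.24, adjusted p = 0.0306). A second probe, for another RefSeq transcript of the gene, read 1367 and 1666 in the Arc, 302 and 278 on the VMH arrays, 730 and 647 on the DMH arrays, and 372 and 849 on the LH arrays. It gave the same order for the highest and the lowest nucleus, with 1.65 ± 0.31 in the Arc (adjusted p = 0.0266) and -1.53 ± 0.31 in the VMH (adjusted p = 0.0423). Between the Arc and the VMH directly, *Gfap* differed 3.88-fold by the first probe (adjusted p = 0.0124) and 5.20-fold by the second (adjusted p = 0.0152). For the first probe, the call in the Arc was lost without Arc2 (0.92, adjusted p = 0.179), without either VMH or DMH array, and without scaling (1.00, adjusted p = 0.100). Its call in the VMH was lost without either VMH array (adjusted p = 0.234 and 0.164), without either DMH array, without scaling, and with no filter on dim probes. For the second probe, both calls were lost without any 1 of the 6 arrays of the Arc, VMH, and DMH (adjusted p up to 0.197 in the Arc and 0.253 in the VMH), and the call in the VMH also under normexp, a model-based background correction (-1.07, adjusted p = 0.0527), with no filter on dim probes (adjusted p = 0.0729), and when replicate number was a block (adjusted p = 0.0508). Set against the median of the 34 genes on the same array, which needs no scaling between arrays, the log2 difference of *Gfap* was -0.48 and 0.06 on the Arc arrays, -2.48 and -2.52 on the VMH arrays, -1.68 and -1.55 on the DMH arrays, and -1.88 and -1.37 on the LH arrays. After scaling, that median was itself lower on the Arc arrays (12.35 and 12.57 in log2) than on the others (12.73 to 13.11). Part of this difference between the Arc and the other nuclei is therefore the lower level of the reference.

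**Figure D2:**
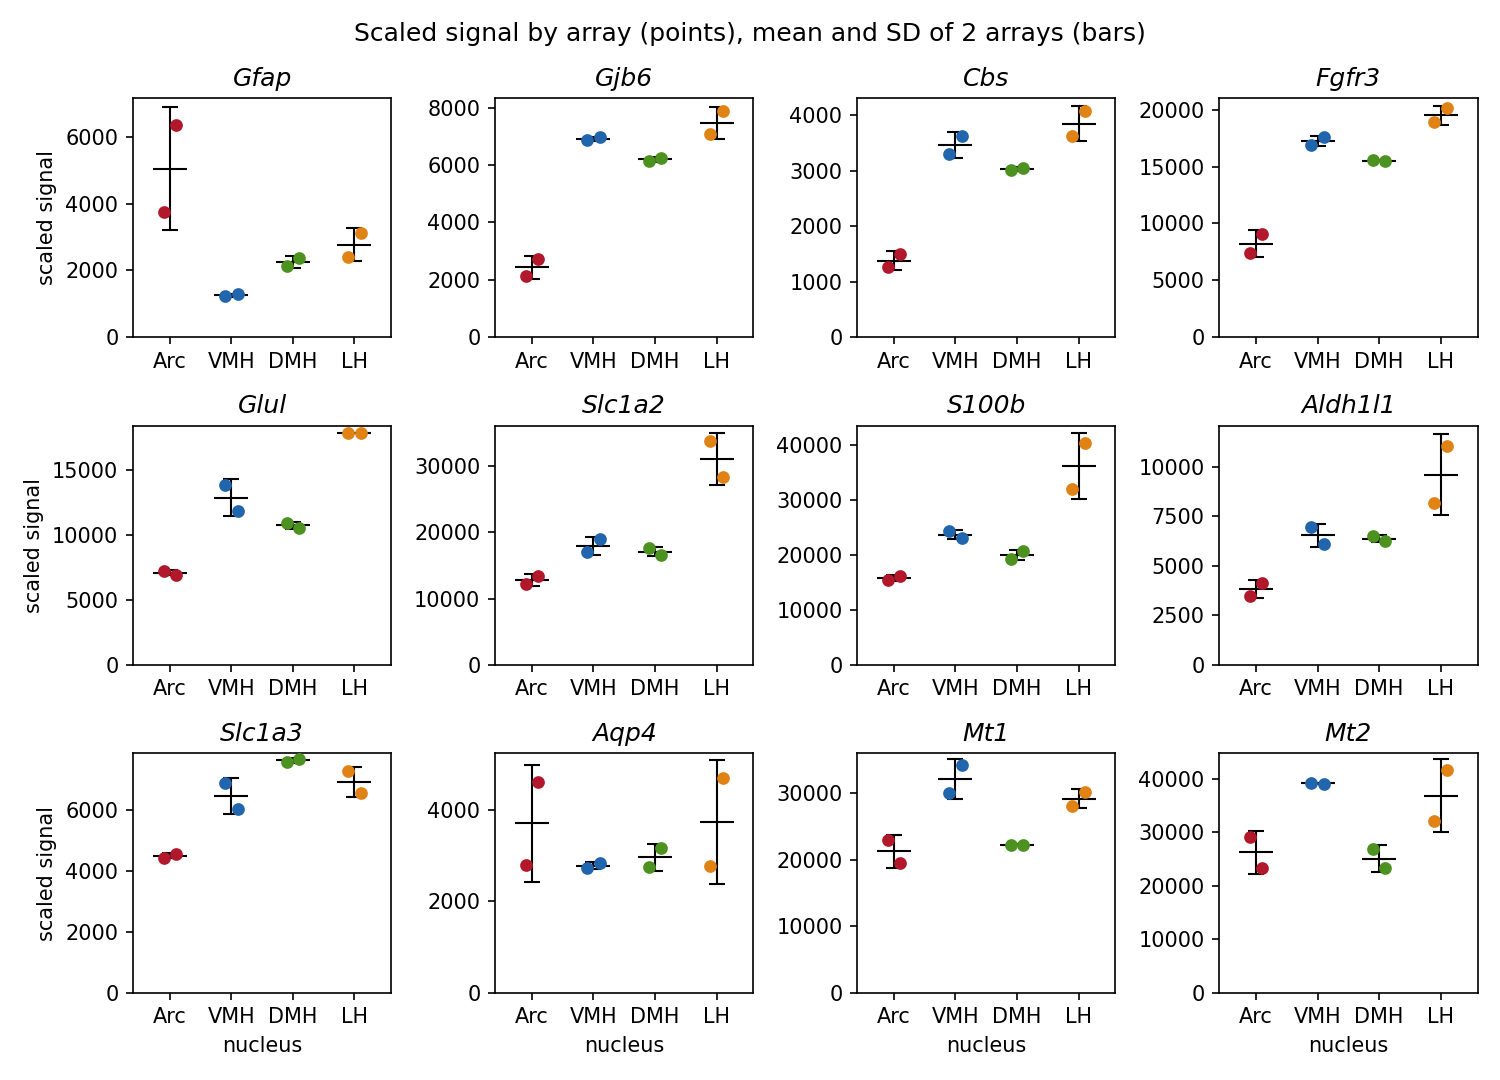
Scaled signal (linear axis from 0) of 12 astrocyte genes in the 4 nuclei. Points are the 2 arrays of a nucleus, the horizontal bar is their mean and the error bar their SD. *Gfap* is highest in the Arc, whereas *Gjb6*, *Cbs*, *Fgfr3*, *Glul*, *Slc1a2*, *S100b*, *Aldh1l1*, and *Slc1a3* have both Arc points below the points of every other nucleus.

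Of the other identity genes, *Fgfr3* and *Aldh1l1* were lower in the Arc and *S100b* was higher in the LH. *Fgfr3*, a growth factor receptor of astrocytes and their precursors, read 7388 and 9045 in the Arc, 16921 and 17564 on the VMH arrays, 15549 and 15474 on the DMH arrays, and 18929 and 20116 on the LH arrays. Both Arc arrays lay below all other arrays, and *Fgfr3* was 2.12-fold lower in the Arc (-1.09 ± 0.16, adjusted p = 0.012), a call lost without Arc1 (adjusted p = 0.150) or Arc2 (adjusted p = 0.0737). *Aldh1l1*, a folate enzyme used as a general astrocyte marker, read 3499 and 4151 in the Arc, 6963 and 6128 on the VMH arrays, 6489 and 6255 on the DMH arrays, and 8154 and 11064 on the LH arrays. The Arc arrays lay below and the LH arrays above all others. *Aldh1l1* was 1.93-fold lower in the Arc (-0.95 ± 0.19, adjusted p = 0.0323), a call lost without any 1 of the 6 arrays of the Arc, VMH, and DMH (adjusted p up to 0.299, without Arc1), with no filter on dim probes, and against the VMH and DMH alone. Its 1.75-fold higher mean in the LH had an adjusted p of 0.0524. *S100b*, a calcium-binding protein that oligodendrocytes also make, read 15339 and 16138 in the Arc, 24239 and 23047 on the VMH arrays, 19248 and 20650 on the DMH arrays, and 31931 and 40330 on the LH arrays. The order was the same as for *Aldh1l1*, and *S100b* was 1.84-fold higher in the LH (0.88 ± 0.17, adjusted p = 0.0292), a call lost without LH2 (0.71, adjusted p = 0.0811), without any 1 of the 6 arrays of the other nuclei, without scaling, with no filter on dim probes, and against the VMH and DMH alone.

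*Agt*, which encodes angiotensinogen, had the largest difference of any member in the DMH. It read 2030 and 2933 in the Arc, 3407 and 4633 on the VMH arrays, 5744 and 4274 on the DMH arrays, and 4178 and 3545 on the LH arrays. The VMH arrays overlapped with those of the DMH and of the LH, and both DMH arrays lay above both LH arrays. Neither the DMH difference of 0.57 ± 0.24 (adjusted p = 0.684) nor the Arc difference of -0.79 ± 0.24 (adjusted p = 0.108) passed. *Sox9*, the transcription factor that sets astrocyte identity, had its lowest mean in the VMH (973 ± 122, SD, n = 2) and its highest in the LH (1789 ± 263), with an F-test adjusted p of 0.262. Both VMH arrays of *Sox9* lay below all others, and its Arc difference of 0.25 did not pass. *Itih3* had its lowest mean in the Arc (13844 ± 3099) and its highest in the VMH (25223 ± 897), with adjusted p = 0.126. *Aldoc* and *Acsbg1*, a glycolytic enzyme and a fatty acid activating enzyme, spanned 0.43 and 0.44 in log2 between their highest and lowest nuclei, less than most members. Over the 9 identity genes, 1 was higher and 2 were lower in the Arc (2.14% and 4.12% of all probes) and 1 was higher in the LH (3.89% of all probes), with medians of -0.71 and 0.32.

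Of the 6 genes of transmitter uptake and conversion that were tested, 4 were called lower in the Arc, where 4.12% of all probes were. All 6 had a lower mean there than in each other nucleus. *Glul*, the glutamine synthetase that turns glutamate into glutamine, read 7247 and 6952 in the Arc, 13890 and 11868 on the VMH arrays, 10954 and 10536 on the DMH arrays, and 17861 and 17875 on the LH arrays. The Arc arrays lay below and the LH arrays above all others, with a 1.90-fold lower mean in the Arc (-0.93 ± 0.16, adjusted p = 0.0184) and a 1.80-fold higher mean in the LH (0.85 ± 0.16, adjusted p = 0.0262). The first call was lost without Arc1, Arc2, VMH1, DMH1, or DMH2 (adjusted p up to 0.159) and against the VMH and DMH alone. The second was lost without any 1 of the 8 arrays (adjusted p up to 0.0775), without scaling (0.76, adjusted p = 0.139), with no filter on dim probes, and against the VMH and DMH alone.

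*Slc1a2*, the main glutamate transporter of astrocytes, had the largest positive difference of any member in the LH. Its brightest probe read 12219 and 13443 in the Arc, 17050 and 18991 on the VMH arrays, 17594 and 16589 on the DMH arrays, and 33838 and 28332 on the LH arrays. The LH arrays lay above all others, 1.96-fold over the mean of the other nuclei (0.97 ± 0.16, adjusted p = 0.0204), and the Arc arrays below all others, 1.65-fold (-0.73 ± 0.16, adjusted p = 0.0491). The call in the LH was lost without LH1 (0.84, adjusted p = 0.0579) or any 1 of the 6 arrays of the other nuclei, without scaling, and against the VMH and DMH alone. The call in the Arc was lost without any 1 of those 6 arrays and under no scaling, quantile normalization, no filter, the replicate number as a block (adjusted p = 0.0743), and the VMH and DMH as reference (-0.45, adjusted p = 0.250). Of the other probes of *Slc1a2*, one gave 0.74 ± 0.23 in the LH (adjusted p = 0.108) and the other 0.13 ± 0.27 (adjusted p = 0.794), with 9102 on LH1 and 17443 on LH2. In the Arc these probes gave -0.61 ± 0.23 (adjusted p = 0.190) and -0.66 ± 0.27 (adjusted p = 0.221), so neither was called there. *Slc1a3*, the second glutamate transporter, read 4428 and 4550 in the Arc, 6877 and 6039 on the VMH arrays, 7572 and 7667 on the DMH arrays, and 7260 and 6559 on the LH arrays. Both Arc arrays lay below all others and both DMH arrays above all others, and the Arc difference of -0.64 ± 0.16 had an adjusted p of 0.0629.

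*Cbs*, the cystathionine synthase that makes hydrogen sulfide in astrocytes, was among the members that differed most. It read 1260 and 1505 in the Arc, 3306 and 3636 on the VMH arrays, 3009 and 3053 on the DMH arrays, and 3632 and 4075 on the LH arrays. Every array outside the Arc read at least 3009, and *Cbs* was 2.49-fold lower in the Arc (-1.32 ± 0.16, adjusted p = 0.0067), a call lost without Arc1 (adjusted p = 0.0901) or Arc2 (adjusted p = 0.0556). *Slc7a10*, a carrier of small neutral amino acids including D-serine, had means of 2363 ± 377 in the Arc against 4054 ± 320 to 4423 ± 479 in the other nuclei (-0.87 ± 0.18, adjusted p = 0.0342). The call of *Slc7a10* was lost without any 1 of the 6 arrays of the Arc, VMH, and DMH (adjusted p up to 0.325, without Arc1), without scaling, with no filter on dim probes, with the replicate number as a block (adjusted p = 0.0541), and against the VMH and DMH alone. *Slc6a11*, a GABA transporter, had 785 ± 98.6 in the Arc against 1188 ± 65.6 to 1269 ± 287 elsewhere, and its difference of -0.64 ± 0.19 had an adjusted p of 0.106.

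*Gjb6*, which encodes the gap junction protein connexin 30, had the largest negative difference of any member in the Arc and the largest positive one in the VMH. It read 2140 and 2722 in the Arc, 6854 and 6966 on the VMH arrays, 6139 and 6257 on the DMH arrays, and 7070 and 7868 on the LH arrays. Every array outside the Arc read at least 6139, and *Gjb6* was 2.83-fold lower in the Arc (-1.50 ± 0.17, adjusted p = 0.00484), a call lost without Arc1 (-1.33, adjusted p = 0.0627) and kept without each other array and in the other settings tried. In the VMH its difference was 0.52 ± 0.17 (adjusted p = 0.160). *Gja1*, which encodes the other astrocyte connexin, connexin 43, had means of 598 ± 93.7 (Arc), 638 ± 147 (VMH), 969 ± 117 (DMH), and 907 ± 136 (LH), and its Arc difference of -0.46 ± 0.21 had an adjusted p of 0.271. The Arc and VMH arrays of *Gja1* overlapped, unlike those of *Gjb6*.

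*Aqp4*, the water channel of astrocyte end-feet, did not pass the test. It read 2797 and 4606 in the Arc, 2721 and 2828 on the VMH arrays, 2751 and 3175 on the DMH arrays, and 2772 and 4699 on the LH arrays. The 2 arrays of the Arc and of the LH differed by more than the nuclei did, so that all 4 nuclei overlapped (F-test adjusted p = 0.739), and the second probe gave 0.555. *Atp1b2*, a subunit of the sodium pump, had 12845 ± 1078 in the Arc against 17710 ± 559 to 22289 ± 5302 elsewhere (-0.64 ± 0.19, adjusted p = 0.102). *Mlc1* and *Hepacam*, 2 partner membrane proteins of astrocyte junctions, had LH differences of 0.52 ± 0.17 (adjusted p = 0.118) and 0.82 ± 0.24 (adjusted p = 0.0923). *Slc4a4*, a sodium bicarbonate cotransporter, was not called by its 2 brighter probes (-0.43 ± 0.18 and -0.45 ± 0.17 in the Arc, adjusted p = 0.222 and 0.183) and was called by its dimmest (-0.83 ± 0.19, adjusted p = 0.0482), a call lost without any 1 of the 6 arrays of the Arc, VMH, and DMH (adjusted p up to 0.289, without Arc2) and in 6 other settings, the replicate number as a block among them (adjusted p = 0.0735). Of the 7 genes of water, ions, and junctions, limma called 1 lower in the Arc and 0 in the LH by the brightest probe, where 3 had an unadjusted p under 0.05 in each, with medians of -0.46 and 0.40, and all 7 had a positive LH difference. Of all probes, 4.12% were called lower in the Arc and 3.89% higher in the LH.

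*Fabp7* and *Fabp5*, the fatty acid binding proteins of the brain, had their highest means in the LH. *Fabp7* had 3031 ± 355 (Arc), 2338 ± 596 (VMH), 4493 ± 1150 (DMH), and 6079 ± 376 (LH), and *Fabp5* had 6650 ± 581, 9783 ± 2199, 8485 ± 344, and 13781 ± 367. Both LH arrays lay above all others for each gene, and the LH differences of 0.96 ± 0.23 (adjusted p = 0.056) and 0.76 ± 0.18 (adjusted p = 0.0593) did not pass. *Clu* and *Cst3*, the secreted clusterin and the protease inhibitor cystatin C, varied little, with F-test adjusted p-values of 0.549 and 0.864. The range of *Cst3* over the nuclei, 0.22 in log2, was the smallest of all members.

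The metallothioneins, small proteins that bind zinc and copper, had their higher means in the VMH and LH. *Mt1* read 23035 and 19504 in the Arc, 29977 and 34285 on the VMH arrays, 22171 and 22276 on the DMH arrays, and 28154 and 30255 on the LH arrays. *Mt2* read 29125 and 23415 in the Arc, 39278 and 39136 on the VMH arrays, 26906 and 23274 on the DMH arrays, and 32090 and 41741 on the LH arrays. For both genes each VMH and LH array lay above each Arc and DMH array. *Mt3*, the form that neurons make too, read 28900 and 28865 in the Arc, 28221 and 33706 on the VMH arrays, 24731 and 22267 on the DMH arrays, and 35338 and 31063 on the LH arrays. Only the DMH arrays of *Mt3* lay apart, below all others. None of the 3 genes passed, with F-test adjusted p-values of 0.204, 0.212, and 0.388, VMH differences of 0.42 ± 0.16, 0.44 ± 0.19, and 0.13 ± 0.16, and DMH differences of -0.28 ± 0.16, -0.42 ± 0.19, and -0.40 ± 0.16. *Mt2* had the largest negative difference of any member in the DMH (adjusted p = 0.727).

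*Id3* and *Id4*, inhibitors of basic helix-loop-helix transcription factors, had their highest means in the Arc and their lowest in the VMH, as *Gfap* did. The VMH and LH means of *Id4* were nearly equal (pairwise limma adjusted p = 0.992), and its lowest array was LH1. *Id3* read 794 and 1733 in the Arc, 167 and 303 on the VMH arrays, 562 and 680 on the DMH arrays, and 856 and 445 on the LH arrays. The VMH arrays lay below all others, the Arc arrays overlapped with LH1, and the range over the nuclei, 2.38 in log2, was the largest of all members. Its Arc difference of 1.41 ± 0.40 (adjusted p = 0.0978) was the largest positive one there among the brightest probes of the genes (the second probe of *Gfap* had 1.65) and its VMH difference of -1.77 ± 0.40 (adjusted p = 0.0625) the largest negative one, and neither passed. The second passed in 5 of the settings tried, with -1.18 under normexp (adjusted p = 0.0288). *Id4* read 2798 and 2893 in the Arc, 1519 and 1919 on the VMH arrays, 2177 and 2559 on the DMH arrays, and 1260 and 2340 on the LH arrays. Both Arc arrays lay above all others, and neither the Arc difference of 0.58 ± 0.26 (adjusted p = 0.264) nor the LH difference of -0.39 ± 0.26 (adjusted p = 0.385), the lowest of any member in the LH, passed.

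None of the 3 matrix genes passed the test. *Ptprz1*, a receptor phosphatase shed into the matrix, and the proteoglycans *Bcan* and *Ncan* had F-test adjusted p-values of 0.736, 0.546, and 0.723 by their brightest probes. The spread within a nucleus was as wide as between nuclei, for example 3798 on LH1 and 5941 on LH2 for *Ptprz1* and 7063 on Arc1 and 10922 on Arc2 for *Ncan*.

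**Figure D3:**
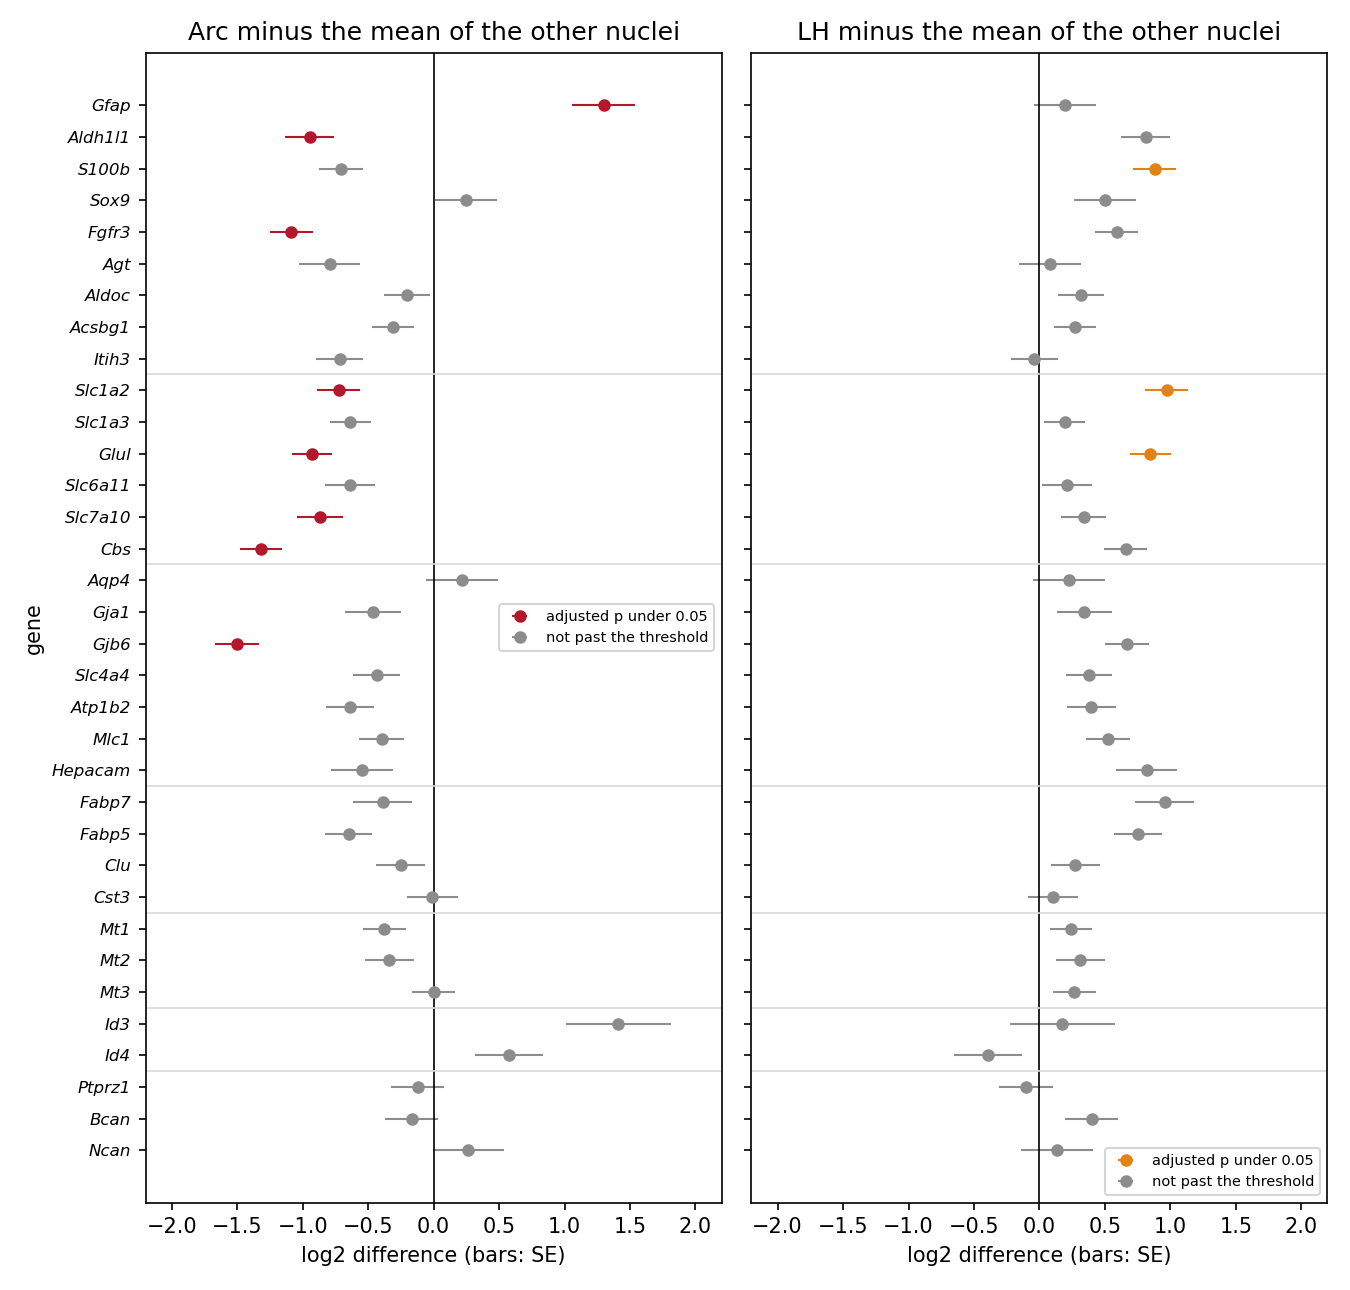
Log2 difference of the Arc (left) and of the LH (right) from the mean of the other nuclei for the 34 genes, with the SE of the limma fit as bars. Colored points passed the adjusted threshold, namely *Gfap* and 7 lower genes in the Arc and *S100b*, *Slc1a2*, and *Glul* in the LH, and grey lines separate the roles.

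Ordered by their means, the nuclei followed 1 sequence in many members. The Arc was lowest in 23 of the 34 genes, with both Arc arrays below all others in 17, where this holds for 10.9% of 28765 probes. The LH was highest in 21, with both LH arrays above all others in 11, against 12.2% of probes, and it was lowest in none, where 33.4% of probes were. Both arrays of a nucleus above all others were rarer for the Arc (2 genes, beside 8.65% of probes), the VMH (1, beside 8.13%), and the DMH (1, beside 2.2%). Both arrays below all others occurred in 4 genes for the VMH (beside 7.36% of probes), 1 for the DMH (beside 2.75%), and 0 for the LH (beside 9.25%). In 13 genes the order from high to low was LH, VMH, DMH, Arc, where 8.09% of probes had this order, and in 9 genes the Arc arrays lay below and the LH arrays above all others, where this held for 3.78% of probes. Of the 102 pairs of neighbours in the order, 1 passed the pairwise test, *Gjb6* between the DMH and the Arc. With 2 arrays a nucleus the test can miss real differences, so a pair that did not pass need not be equal. The range from the highest to the lowest nucleus was under 1 in log2 for 21 of the 34 genes, with a median of 0.77. The 2 arrays of a nucleus differed by a median of 0.24 (Arc), 0.20 (VMH), 0.09 (DMH), and 0.25 (LH). By more than 0.5 the Arc arrays differed for 6 genes (*Gfap*, *Sox9*, *Agt*, *Aqp4*, *Id3*, and *Ncan*), the VMH arrays for 3 (*Hepacam*, *Fabp7*, and *Id3*), the DMH arrays for 1 (*Fabp7*), and the LH arrays for 6 (*Aqp4*, *Cst3*, *Id3*, *Id4*, *Ptprz1*, and *Ncan*).

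In direct comparisons of 2 nuclei, 19 calls were made over the 6 pairs. Most, 10 probes of 10 genes, were lower in the Arc than in the LH, where 6.02% of all probes were, from 3.09-fold for *Gjb6* (adjusted p = 0.00541) to 1.87-fold for *Slc7a10* (adjusted p = 0.046). Beside the 7 genes lower in the Arc against all nuclei, they were *S100b* (2.28-fold), *Fabp5* (2.08-fold), and the dimmest probe of *Slc4a4* (2.22-fold). Against the VMH, the 2 *Gfap* probes and *Id3* (5.22-fold, adjusted p = 0.0384) were higher in the Arc, where 2.4% of all probes were, and *Gjb6* (2.86-fold), *Cbs* (2.52-fold), *Fgfr3* (2.11-fold), and *Glul* (1.81-fold) were lower, where 3.52% were. Against the DMH, *Gjb6* alone was lower in the Arc (2.57-fold, adjusted p = 0.0322), where 0.727% of all probes were. No member was higher in the Arc than in the DMH or the LH, where 0.533% and 3.32% of all probes were. *Fabp7* was 2.64-fold lower in the VMH than in the LH (adjusted p = 0.0358), where 3.04% were, and no member was higher, where 2.24% were. Between the DMH and either the VMH or the LH limma called 0 member probes, with 7 and 9 at an unadjusted p under 0.05. Of all probes, 1.1% were higher and 0.945% lower in the VMH than in the DMH, and 0.26% higher and 0.664% lower in the DMH than in the LH. The number of calls became 2, 4, 8, 9, 11, and 11 without Arc1, Arc2, VMH1, VMH2, DMH1, or DMH2.

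Another 30 astrocyte genes outside the list were examined beside the members. Of the 29 tested, 1 was higher and 1 lower in the Arc, 3 were higher in the LH, and 1 was lower in the DMH, beside the shares of all probes given above for these comparisons. Of the 29, 21 had a negative difference in the Arc, with a median of -0.54, and 23 a positive one in the LH, with a median of 0.41. *Htra1*, a secreted protease, passed in both, with -1.27 in the Arc (adjusted p = 0.0143) and 1.11 in the LH (adjusted p = 0.024). *Cldn10* and *Mfge8* were higher in the LH by 1.02 and 0.79 (adjusted p = 0.0284 and 0.0407). *Dio2*, the deiodinase that tanycytes make as well, was the gene of these higher in the Arc, by 2.04 (adjusted p = 0.00488), and was lower in the DMH (-1.79, adjusted p = 0.035).

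Among markers of other cell types, those of oligodendrocytes were also low in the Arc and high in the LH, whereas those of tanycytes were mostly high in the Arc. All 12 oligodendrocyte genes tested were higher in the LH, with a median of 2.77, and 11 of 12 were lower in the Arc, with a median of -2.22. Their summed signal was 13611 and 22325 in the Arc, 33786 to 46367 in the VMH and DMH, and 131746 and 142262 in the LH, and on the Arc arrays 9 and 10 of the 12 were well above background. The part of these cells in the Arc and LH differences of the astrocyte genes was not tested. Of 9 tested genes of tanycytes and ependymal cells, 5 (*Rax*, *Crym*, *Col23a1*, *Vim*, and *Dio2*) were higher in the Arc, with a summed signal of the 11 genes of 11949 and 13241 there and 4672 to 5906 elsewhere. *Crym* was also higher in the VMH (1.29, adjusted p = 0.0132). *Lhx2*, *Nes*, and *Rarres2* were not called in the Arc, with differences of 2.39, 0.96, and -0.09 (adjusted p = 0.0537, 0.291, and 0.840). The ependymal genes *Foxj1* and *Tmem212* rose well above background on 0 of the 8 arrays, whereas *Ccdc153*, another ependymal gene, did so on all 8, with signals of 696 to 1282 and an Arc difference of 0.17 (adjusted p = 0.791). The part of tanycytes in the Arc signal of *Gfap* and the Id genes was not tested.

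Neuronal genes differed too, with 5 of 12 lower and 1 higher in the Arc, 4 higher in the LH, and 3 higher and 3 lower in the VMH, and 1 higher in the DMH, beside the shares of all probes given above. *Gad1*, *Gad2*, and *Slc32a1*, genes of GABA neurons, were the 3 lower in the VMH (-4.71, -3.04, and -2.86) and were among the 4 higher in the LH. *Rbfox3*, *Nefl*, and *Slc17a6* were the 3 higher in the VMH. *Gad1* was also the gene higher in the Arc and in the DMH. *Snap25*, *Tubb3*, *Stmn2*, and *Elavl4* were called in no nucleus. The summed signal of the 11 neuronal genes read on all arrays was 198327 to 217246 in the Arc and 212743 to 258919 in the other nuclei. Among 6 genes of oligodendrocyte precursors, *Sox10*, *Olig1*, and *Olig2*, which mature oligodendrocytes also express, were higher in the LH, and *Sox10* was lower in the Arc. Limma called 0 of 9 microglial genes in any nucleus, with 1 at an unadjusted p under 0.05 in the Arc and 7 in the LH, where the medians were 0.13 and 0.54, and of 7 endothelial genes *Flt1* alone was called, lower in the Arc and higher in the LH. Of 6 genes of mural and leptomeningeal cells limma called 0, with 2 at an unadjusted p under 0.05 in the Arc and 3 in the LH. The part of these cells in the differences of the astrocyte genes was not tested.

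**Figure D4:**
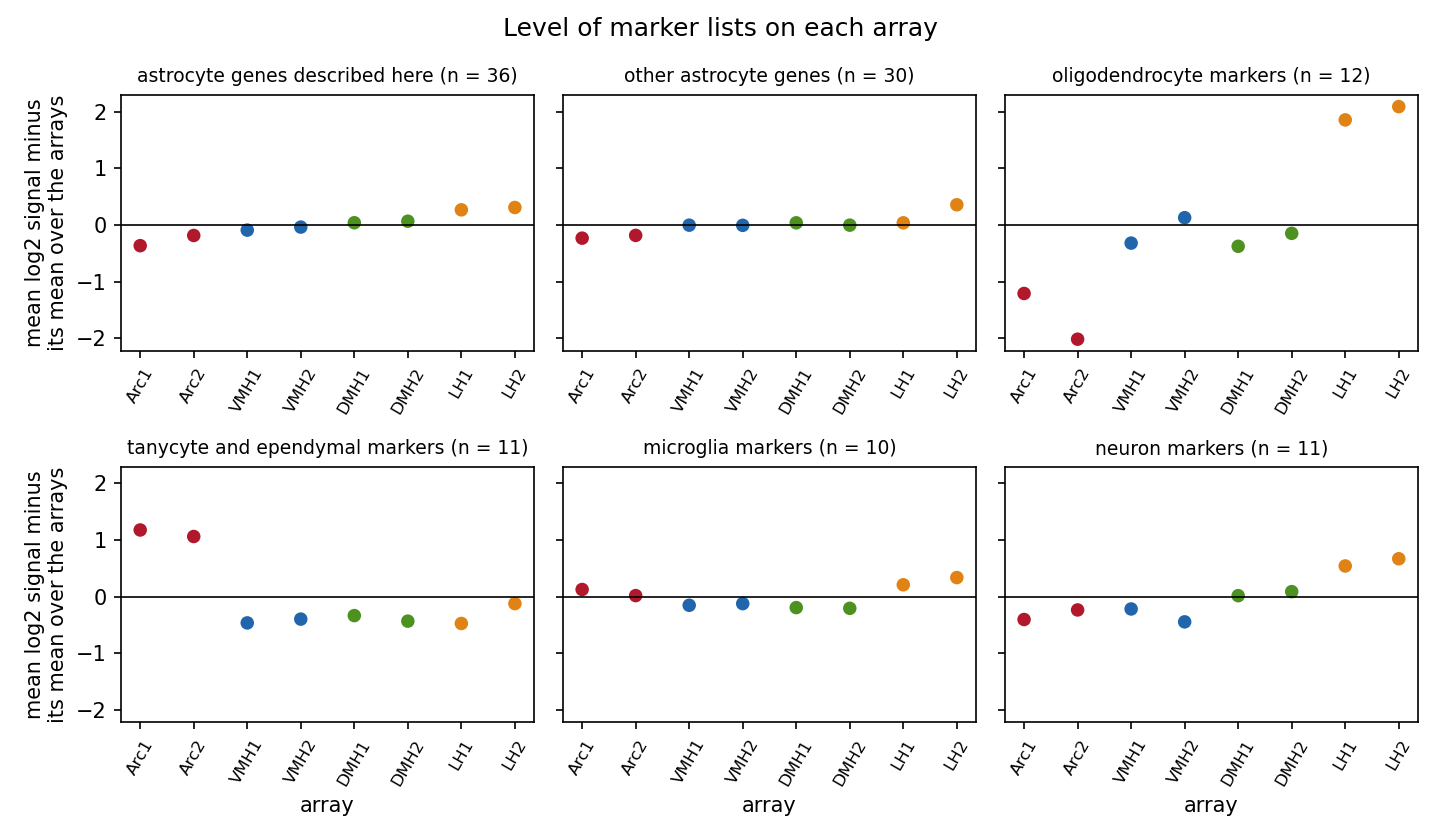
Mean log2 scaled signal of 6 gene lists on each of the 8 arrays, minus the mean of the list over the arrays, 1 point per array. The astrocyte lists rise by less than 1 from the Arc to the LH, the oligodendrocyte list by over 3, and the tanycyte and ependymal list is highest on both Arc arrays.

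For 7 members more than 1 probe was tested, and the probes of a gene mostly moved alike. Both probes of *Gfap* had the Arc highest and the VMH lowest, and both of *Ptprz1* had the DMH highest. For *Fgfr3* the second probe gave -0.85 ± 0.22 in the Arc (adjusted p = 0.075) beside -1.09 ± 0.16 for the first. The third probe of *Slc1a2* and the second of *Bcan* departed from their brighter partners, the latter with 0.89 ± 0.25 in the LH (adjusted p = 0.0867) beside 0.40 ± 0.20.

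**Figure D5:**
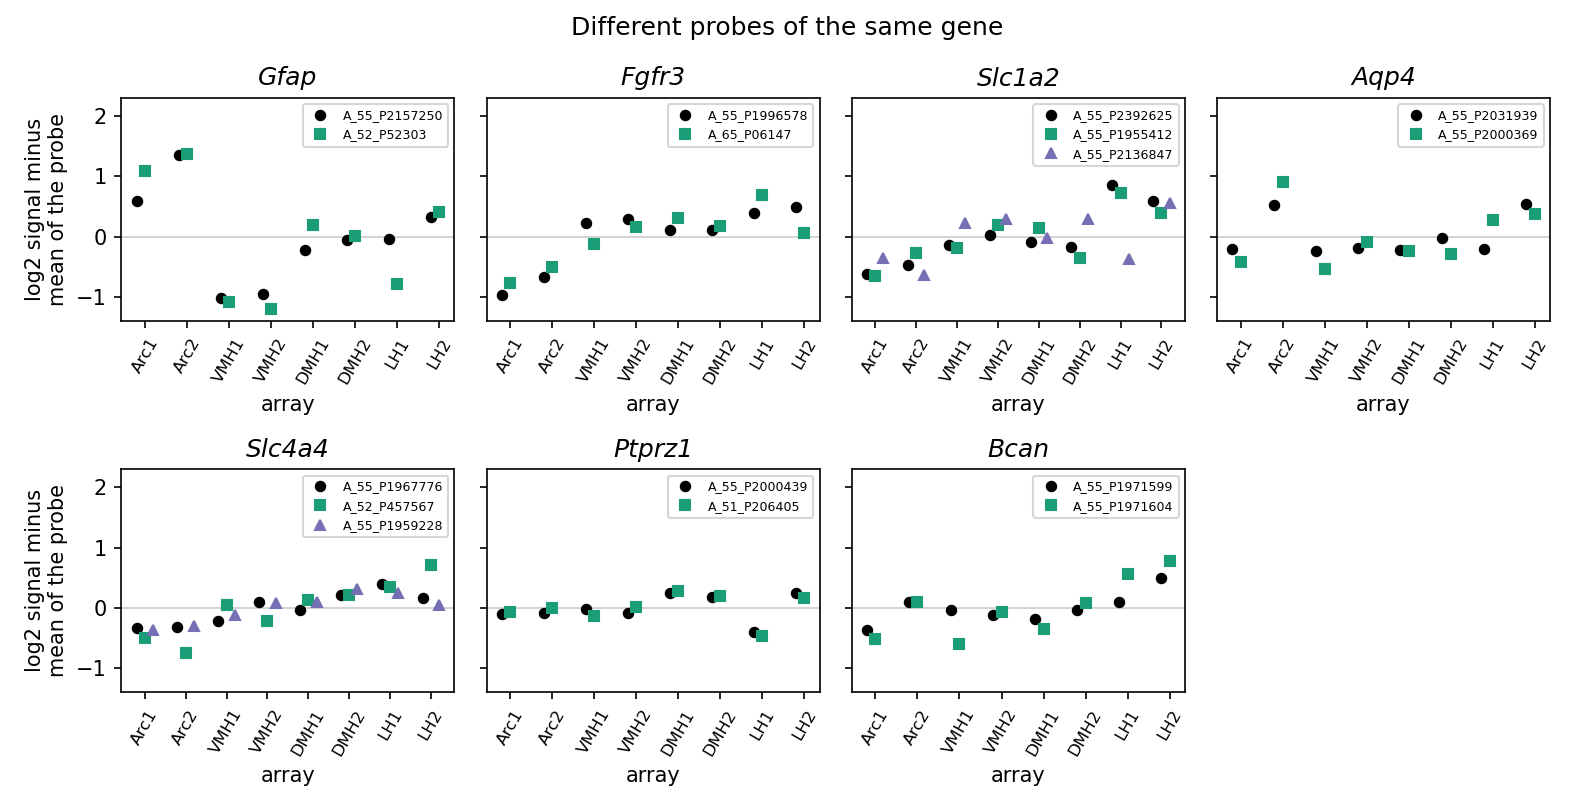
Log2 scaled signal of each tested probe minus its own mean over the 8 arrays, for the 7 genes with more than 1 tested probe. Symbols mark the probes, and the 2 probes of *Gfap* share the high Arc and low VMH values, whereas the third probe of *Slc1a2* lacks the high value on LH1.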

How the data were processed

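Laser-microdissected nuclei of 2 mice were profiled on 8 one-color arrays of 1 slide. The authors amplified the RNA as a whole transcriptome, labeled it with the Kreatech kit, and extracted spot signals with Agilent Feature Extraction (10.7.3.1 in the file headers, 11.5.1.1 in the submitters' processing notes). The processed signal they deposited is a linear intensity that is background-subtracted and not scaled between arrays. Cy3 is the dye in the labels, whereas the red (Cy5) channel is the one in the files. The deposited table of all arrays holds these intensities averaged over spots and rounded.

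Control and outlier spots were left out, spots of a probe (up to 10) were averaged, each array was divided by its 75th percentile, and log2 was taken. One limma model (version 3.58.1, R 4.3.3) with a mean per nucleus used 28894 probes, those that both arrays of 1 nucleus or more measured well above background, and had 4 residual and 3.02 prior degrees of freedom. It gave an F-test, each nucleus against the mean of the other 3, and the 6 pairs, each adjusted by Benjamini-Hochberg over all probes at 0.05. The methods name no test for the arrays beside a ratio, and their one-way ANOVA was an alternative. Of 28390 probes with a RefSeq accession, 26762 (94.3%) were named through GRCm38.p6. A gene with several probes was represented by its brightest tested probe. Values on every array are given for members past the F-test, for *Gfap*, *Aldh1l1*, *Aqp4*, *Slc1a2*, *Slc1a3*, and *Glul*, for the largest and smallest difference in each nucleus, and for *Mt1*, *Mt2*, and *Mt3*.

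The members, their roles, and the marker lists (other astrocyte, oligodendrocyte, precursor, tanycyte and ependymal, microglial, endothelial, mural and leptomeningeal, neuronal, and nucleus genes) were chosen with earlier results of these data known. The analysis was tested on simulated data for 28765 probes, some of them raised in the Arc. Of 100 probes raised 2-fold, 11% were called in the Arc and 0% by the F-test, and of 100 raised 4-fold 86% and 36%. The number of arrays limits the precision.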

Additional observations from a re-analysis of the deposited data

How the results depend on the processing

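Alternatives were run for the counts of member probes called, the medians of the members, and the differences of single members from the other nuclei, and none of these that was called changed direction. The count of member probes past the F-test (8) was 3 without scaling and 2 with no filter on dim probes. It was 3 by the methods' one-way ANOVA (19 at an unadjusted p under 0.05) and 14 with trended and robust moderation. Over all probes the count (2409) was 1878, 1754, 529, and 3438 in these 4 settings. Both counts fell when 1 array of the Arc, VMH, or DMH was left out. The count in the Arc (10) was 17 with trended and robust moderation and 5 against the VMH and DMH alone, and between 1 and 14 without 1 array. The count in the VMH (2) was 1 without scaling, 0 with no filter, 4 with a filter on all 8 arrays, and 4 with trended moderation, and between 0 and 3 without 1 array. The count in the LH (3) was 8 with normexp, 0 without scaling, 1 with no filter, 10 with a filter on all 8 arrays, 5 after dim signals were set to the array's lowest measured value, 11 with trended moderation, and 0 against the VMH and DMH alone, and between 0 and 2 without 1 array. The 19 pairwise calls were 29 with normexp, 12 with no filter, and 36 with trended moderation, and between 2 and 22 without 1 array. The filters change how many probes share the adjustment and the moderated spread, and a fit without 1 array has fewer samples. The cause of the other changes was not tested.

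Without scaling the median of all probes moved to -0.26 (Arc), 0.08 (VMH), 0.33 (DMH), and -0.11 (LH), and the median of the 34 genes moved to -0.72 in the Arc and 0.35 in the DMH. Relative to all probes the members then stood at -0.46 in the Arc, 0.02 in the DMH, and 0.35 in the LH, beside -0.46, 0.02, and 0.35 with scaling. The split of the Arc calls was 2 higher and 8 lower with scaling, 1 and 7 without, 2 and 7 after quantile normalization, 3 and 11 with normexp, 3 and 4 with no filter on dim probes, and 2 and 15 with trended and robust moderation.

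The replicate number was also the row of the slide. Deviations of arrays with the same number correlated between -0.03 and 0.26 over the 6 pairs of nuclei, so the numbers were not taken as pairs. With the replicate block 6 member probes passed the F-test, including 5 of the 7 genes, 2 were higher and 5 lower in the Arc, 1 was called in the VMH, and 5 in the LH. The Arc calls of *Slc1a2*, *Slc7a10*, and the dimmest probe of *Slc4a4* were lost there (adjusted p = 0.0743, 0.0541, and 0.0735), as was the VMH call of the second *Gfap* probe (adjusted p = 0.0508).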
